A study of Mus musculus with 32 samples.

Results

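The genes described here are 10 members of the Notch pathway: the receptors Notch1, Notch2 and Notch4, the ligands Jag1, Dll1 and Dll4, the nuclear proteins Rbpj and Maml2, and the target genes Hes1 and Hey1. They were chosen by name out of 25067 genes in the table, with earlier results of these data known. RNA was sequenced from bone marrow-derived macrophages (BMDMs), which are macrophages grown in culture from bone marrow cells, in 32 libraries with 4 in each of 8 groups. The groups were BMDM-WT and BMDM-Nur77-KO, each at 0, 1, 5 and 18 h of 100 ng/ml lipopolysaccharide (LPS), a bacterial cell wall component that activates macrophages through Toll-like receptor 4. The marrow came from male C57Bl6/J mice of 6 to 12 weeks and was cultured for 7 days in medium with 15% conditioned medium of L929 cells. BMDM-Nur77-KO cells lack Nur77, a nuclear receptor encoded by Nr4a1. This gene had been deleted in the whole body by crossing mice with a loxP-flanked Nr4a1 locus to mice that express Cre from the cytomegalovirus promoter. Cre was then bred out, so that the cells do not carry it, although the labels write the knockout genotype as "cre". The WT mice were littermates. The number of mice behind the 4 replicates is not given in the sources used here, so that p-values measure the spread between these cultures, which may be technical.

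Notch receptors are cell surface proteins that respond to ligands on neighbouring cells. Binding of a Jagged or Delta-like ligand leads to cleavage of the receptor by an ADAM protease and then by gamma-secretase, and the freed intracellular part enters the nucleus, joins the DNA-binding protein RBPJ and a Mastermind-like coactivator, and turns on genes such as those of the HES and HEY repressors. Without this part, RBPJ can hold its targets silent with corepressors. In macrophages, the pathway is known to act together with Toll-like receptor signals.

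The promoters of Notch2, Jag1, Notch1 and Dll1 are shown. Of these genes, Notch2 and Notch1 peaked at 5 h of LPS and Jag1 peaked earlier. Dll1 was also highest at 5 h, and only its BMDM-WT level at that time brought it into the tests below. Rbpj and Maml2 also peaked at 5 h, and their windows, which held no match, are not printed. RefSeq windows were found for 8 of the 10 members, with 11 windows in all. Each sequence holds the 250 bases before a start of transcription on the gene's own strand, 5′ to 3′, in build GRCm38.p6. Capitals mark a match to 1 of 4 motifs, searched on both strands. These were the NF-kB motif GGGRNWYYCC, the AP-1 motif TGANTCA, the RBPJ motif GTGGGAA and the NBRE AAAGGTCA, to which Nur77 can bind. The windows are chr3:98013288-98013537 (plus strand) for Notch2, chr2:26503823-26504072 (minus strand) for Notch1, chr17:15376933-15377182 (start a) and chr17:15375824-15376073 (start b, both minus strand) for Dll1, and chr2:137116521-137116770 (minus strand) for Jag1.
Notch2: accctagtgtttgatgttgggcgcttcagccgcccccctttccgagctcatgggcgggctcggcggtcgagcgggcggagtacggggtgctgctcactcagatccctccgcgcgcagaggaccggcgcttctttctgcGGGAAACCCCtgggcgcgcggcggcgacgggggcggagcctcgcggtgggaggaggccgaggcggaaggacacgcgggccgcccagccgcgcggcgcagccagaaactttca
Notch1: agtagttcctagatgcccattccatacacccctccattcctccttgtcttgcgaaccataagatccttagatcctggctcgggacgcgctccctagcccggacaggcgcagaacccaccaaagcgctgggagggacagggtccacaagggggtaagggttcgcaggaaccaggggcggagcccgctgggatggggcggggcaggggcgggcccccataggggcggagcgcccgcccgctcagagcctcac
Dll1 start a: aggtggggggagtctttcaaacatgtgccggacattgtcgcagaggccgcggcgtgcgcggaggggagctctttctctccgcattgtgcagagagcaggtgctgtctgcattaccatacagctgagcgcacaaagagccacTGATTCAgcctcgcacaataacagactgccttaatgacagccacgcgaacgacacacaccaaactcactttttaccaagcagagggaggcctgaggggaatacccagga
Dll1 start b: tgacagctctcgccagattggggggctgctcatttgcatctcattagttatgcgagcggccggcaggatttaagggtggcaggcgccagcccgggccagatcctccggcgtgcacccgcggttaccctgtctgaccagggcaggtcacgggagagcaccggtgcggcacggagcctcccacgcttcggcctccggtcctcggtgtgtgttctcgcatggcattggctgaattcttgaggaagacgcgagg
Jag1: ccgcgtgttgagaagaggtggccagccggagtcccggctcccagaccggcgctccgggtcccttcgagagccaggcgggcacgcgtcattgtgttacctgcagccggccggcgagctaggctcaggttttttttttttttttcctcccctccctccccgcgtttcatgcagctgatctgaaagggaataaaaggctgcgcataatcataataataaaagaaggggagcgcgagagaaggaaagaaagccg

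The last base before the start stands at the right end. The Notch2 window held a match to the NF-kB motif that began 112 bases before the start, and the window at start a of Dll1 held a match to the AP-1 motif that began 109 bases before it. The bases after start a were found in no GENCODE transcript of Dll1, while those after start b were, and the window at start b held no match. None of the 4 motifs was found in the other 9 windows of members, start b included. Of 32851 promoter windows of this length, 3.9% held the NF-kB motif, 6.75% the AP-1 motif, 5.42% the RBPJ motif and 1.34% the NBRE. A match is a description of the letters, and its use by a factor was not measured.

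Library totals, with 1 transcript kept per gene, were 8742362 to 15780926 counts, with a median of 11847140. In CPM, which are counts scaled by TMM to a common library total, Nr4a1 had a mean of 19.6 CPM in BMDM-WT and 5.20 CPM in BMDM-Nur77-KO at 0 h, and of 437 and 190.5 CPM at 1 h. Its libraries did not overlap between genotypes at these times, and the table does not separate deleted from remaining exons. The 9 macrophage markers were all expressed. Their sum was 13500 to 18900 CPM in BMDM-WT and 13300 to 15800 in BMDM-Nur77-KO at 0 h, and 16500 to 18700 and 15100 to 17400 at 1 h. It was lower in every knockout library at 5 h (16600 to 18300 against 13100 to 16300) and at 18 h (14200 to 14700 against 11200 to 12800). Of 9 endothelial markers, Cldn5 was at 0 and Tek, Tie1, Esam and Emcn had at most 2 counts in a library, while Vwf had a mean of 62.6 CPM and Kdr of 9.02 CPM. Of the 9 macrophage markers, edgeR called 0 higher and 2 lower in the knockout at 0 h and 0 higher and 1 lower at 1 h. At 5 h it called 1 higher and 4 lower, and at 18 h it called 1 higher and 5 lower. Fcgr1 was lower at all 4 times (log2 difference -0.66 at 0 h, edgeR adjusted p = 5.5e-06), Itgam (-0.65, 1.2e-09) and Csf1r (-0.63, 0.00085) were lower at 18 h, and Mertk was higher at 5 h (0.51, 0.00015) and 18 h (0.69, 5.5e-07). Of 3 endothelial markers tested, only Kdr was called, lower in the knockout at 0, 1 and 5 h. Its log2 differences were -1.51, -1.08 and -1.28 (edgeR adjusted p = 0.00038, 0.016 and 6.2e-08). Pf4, a megakaryocyte marker, was lower at these times (-0.66, -0.63 and -0.58, edgeR adjusted p = 2.3e-05, 6.3e-05 and 0.00014). Of 4 neutrophil markers, 2 were called higher at 0 h, 2 at 1 h and 0 later. Cd79b (B cell) was lower at 0 h (-0.97) and Xcr1 (dendritic cell) higher at 18 h (0.87). In bulk RNA, fewer cells of a type and less RNA per cell cannot be told apart, and the part of these marker differences in the results below was not tested. BMDM-Nur77-KO replicate 1 at 5 h deviated most from its group, with a mean absolute log2 deviation of 0.43. The genotype differences of Notch1, Notch2, Jag1, Maml2 and Hdac2 at 5 h are given with and without it. The values of other genes at 5 h, and the fold changes with LPS, include it.

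Levels are first compared between members as RPKM, that is, as counts scaled for library size and transcript length. In BMDM-WT at 0 h, Rbpj was highest with a mean of 53.2 ± 3.17 RPKM (SD, n = 4), followed by Notch2 with 13.0 ± 1.20, Jag1 with 5.69 ± 0.583, Notch1 with 3.14 ± 0.165 and Maml2 with 2.80 ± 0.201. The libraries of Notch1 and Maml2 overlapped, and those of the other neighbours in this order did not. At 5 h of LPS, Rbpj with 101 ± 3.00 RPKM and Notch2 with 86 ± 13.5 overlapped, as did Jag1 with 12.5 ± 1.23 and Maml2 with 10.5 ± 0.771, while Notch1 with 21.2 ± 2.35 stood between these pairs. BMDM-Nur77-KO had Rbpj and Notch2 at the top in the same order at 0, 5 and 18 h. At 1 h, Jag1 ranked above Notch2 in both genotypes, with 16.9 ± 1.76 against 14.2 ± 0.396 RPKM in BMDM-WT, and with overlapping libraries in BMDM-Nur77-KO.

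**Figure D1:**
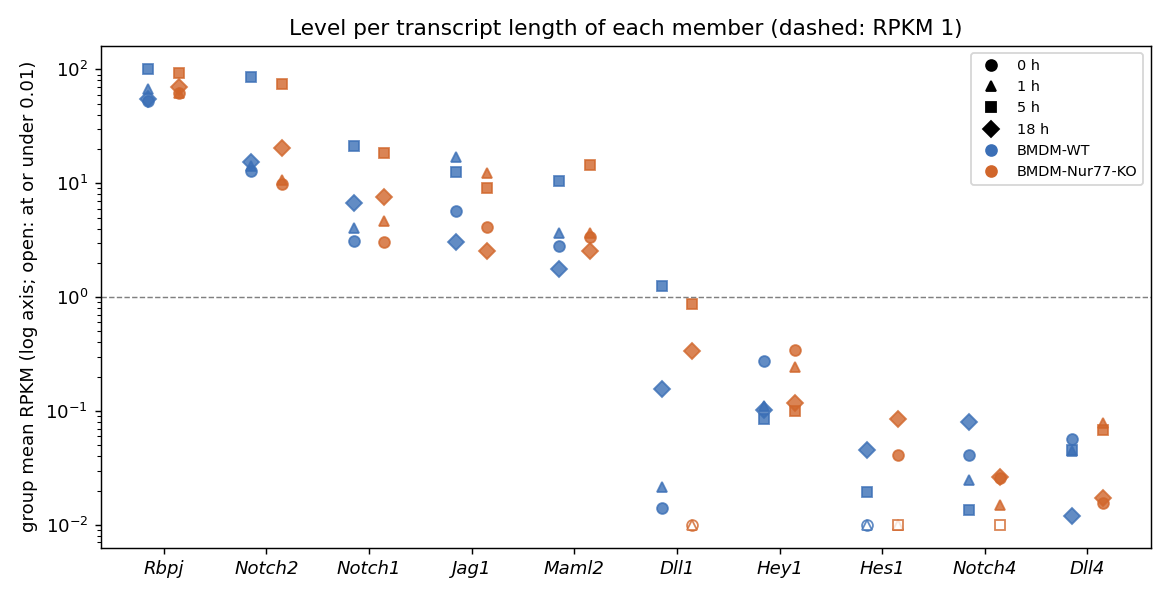
Group mean RPKM (log axis) of the 10 members in BMDM-WT (blue) and BMDM-Nur77-KO (orange), with a symbol for each time of LPS, the dashed line at 1 RPKM and open symbols for means at or under 0.01. Rbpj, Notch2, Notch1, Jag1 and Maml2 lie above 1 RPKM in all 8 groups, Dll1 only in BMDM-WT at 5 h, and Hey1, Hes1, Notch4 and Dll4 in none.

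A test was run on the 11190 genes whose mean RPKM was above 1 in some group. Of the 10 members, 6 passed: Notch1, Notch2, Jag1, Dll1, Rbpj and Maml2. Dll1 passed only through its BMDM-WT level at 5 h (1.26 RPKM, against 0.863 in BMDM-Nur77-KO). It therefore had to differ from the other times, and a lower knockout value at 5 h was favoured in advance. Notch4 had 78 counts over all 32 libraries, Dll4 had 61, Hes1 had 13 and Hey1 had 170. A gene is called below where the quasi-likelihood test of edgeR gave it an adjusted p under 0.05 (Benjamini-Hochberg, over these genes), whatever its fold change.

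**Figure D2:**
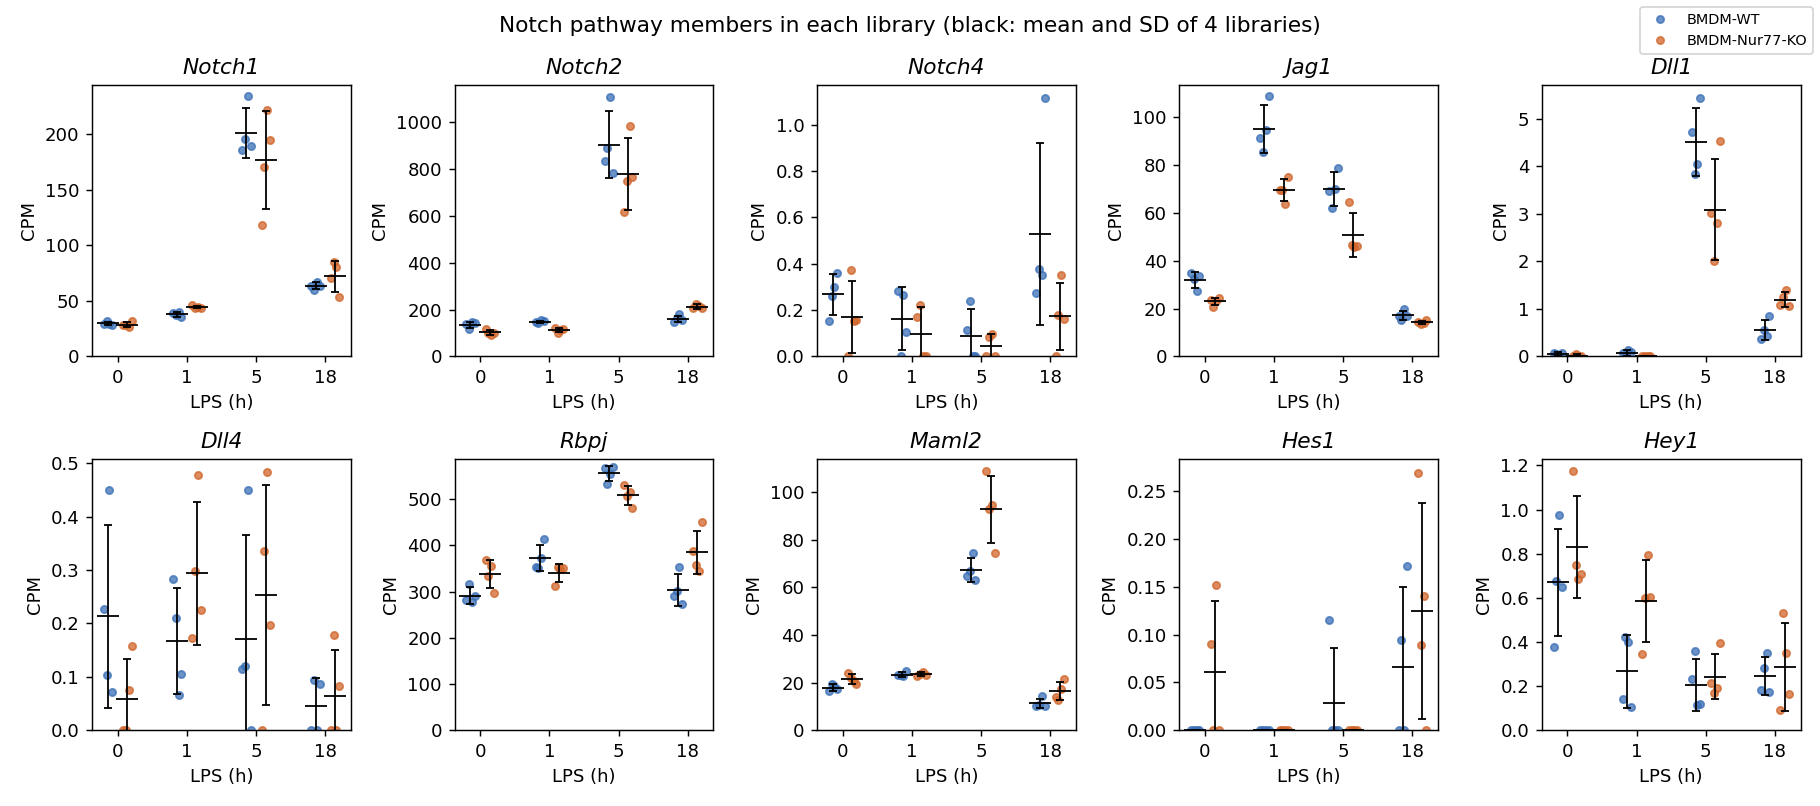
CPM of each member in each library against hours of LPS, for BMDM-WT (blue) and BMDM-Nur77-KO (orange), with the mean and SD of 4 libraries in black and an axis of its own for each gene. Notch1, Notch2, Dll1, Rbpj and Maml2 are highest at 5 h and Jag1 at 1 h, and the panels of Notch4, Dll4 and Hes1 show values of a few counts per library.

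Notch2, the most abundant receptor here (gene at chr3:98013538-98150367, plus strand), rose by 5 h of LPS in both genotypes and had a lower level before and a higher level after that peak in BMDM-Nur77-KO. In BMDM-WT, its 4 libraries, in the order of replicates 1 to 4 as for all members, had 137, 118, 147 and 142 CPM at 0 h, 148, 144, 154 and 151 at 1 h, 833, 888, 1107 and 784 at 5 h and then 148, 162, 179 and 155 at 18 h. In BMDM-Nur77-KO, they had 117, 101, 92.9 and 102 CPM at 0 h, 119.8, 100.1, 111 and 117 at 1 h, 614, 747, 984 and 763 at 5 h and then 205, 226, 214 and 206 at 18 h. The knockout libraries thus all lay below those of BMDM-WT at 0 and 1 h, overlapped with them at 5 h, and all lay above them at 18 h.

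The genotype difference of Notch2 in edgeR was -0.39 ± 0.108 on the log2 scale at 0 h (SE, adjusted p = 0.015), -0.41 ± 0.108 at 1 h (adjusted p = 0.015), -0.21 ± 0.106 at 5 h (adjusted p = 0.13) and 0.39 ± 0.107 at 18 h (adjusted p = 0.0073). The call at 0 h was lost without BMDM-Nur77-KO replicate 3 (-0.34, edgeR adjusted p = 0.069) or BMDM-WT replicate 3 (-0.35, 0.058), and the call at 1 h without BMDM-Nur77-KO replicate 2 (-0.37, 0.075). Without BMDM-Nur77-KO replicate 1 at 5 h, the Notch2 difference there was -0.12 (edgeR adjusted p = 0.49), and without replicate 3 it was -0.34 and called (edgeR adjusted p = 0.012).

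With LPS, Notch2 rose 6.55-fold at 5 h in BMDM-WT (edgeR adjusted p = 2e-19) and 7.41-fold in BMDM-Nur77-KO (edgeR adjusted p = 5.1e-20), and did not pass the test at 1 h in either genotype. From 5 to 18 h, it fell 5.56-fold in BMDM-WT and 3.65-fold in BMDM-Nur77-KO (edgeR adjusted p = 3.5e-18 and 1.9e-15). At 18 h, the knockout was 2.03-fold above its 0 h level (edgeR adjusted p = 9.5e-10), while BMDM-WT was at 1.18-fold of its own (edgeR adjusted p = 0.054), which passed with DESeq2 size factors (0.021) and in DESeq2's Wald test (0.017). This response at 18 h differed between the genotypes by 0.79 ± 0.152 on the log2 scale (edgeR interaction, adjusted p = 0.00059). The value combines the lower level at 0 h with the higher level at 18 h, which are of equal size, and it held without any single library (0.74 to 0.85). For the response at 1 h, the difference was -0.02 (95% interval -0.32 to 0.28), and at 5 h it was 0.18 (-0.12 to 0.47).

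Notch1, the other receptor with clear expression (chr2:26457902-26503822, minus strand), followed the same course over time without a called genotype difference. Its libraries had 29.5, 32.1, 28.9 and 28.6 CPM in BMDM-WT at 0 h, 39.3, 37.3, 40.3 and 35.2 at 1 h, 186, 196, 234 and 189.7 at 5 h and then 63.7, 60.1, 67.4 and 63.5 at 18 h. In BMDM-Nur77-KO, they had 28.0, 28.3, 26.4 and 32.3 CPM at 0 h, 46.2, 44.0, 44.4 and 43.5 at 1 h, 119, 170.2, 222 and 195 at 5 h and then 70.3, 84.8, 80.6 and 53.6 at 18 h. The knockout libraries at 1 h all lay above those of BMDM-WT, and those at 5 and 18 h spread widely around them.

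The 1 h difference of Notch1 was 0.23 (95% interval -0.03 to 0.48, edgeR adjusted p = 0.41) in the fit to all libraries. It passed in a fit to the 8 libraries of this comparison alone (0.22, edgeR adjusted p = 0.021). At 5 h, the difference was -0.19 (-0.43 to 0.06), and without BMDM-Nur77-KO replicate 1 it was -0.04. At 0 h it was -0.05 (-0.30 to 0.21), and at 18 h it was 0.18 (-0.07 to 0.42). Notch1 rose with LPS in both genotypes: 6.66-fold in BMDM-WT and 6.04-fold in BMDM-Nur77-KO at 5 h (edgeR adjusted p = 1.3e-17 and 5.1e-17), and it was still 2.12-fold and 2.48-fold above 0 h at 18 h (1.4e-08 and 3e-10). At 1 h, the rise was called in the knockout (1.53-fold, edgeR adjusted p = 0.00086) and not in BMDM-WT (1.27-fold, 0.06, or 0.027 with DESeq2 size factors), and the difference between these responses did not pass the test (0.27, 95% interval -0.09 to 0.63). Notch4, a receptor best known from endothelium (chr17:34564286-34588543, plus strand), had 0 to 6 counts in every library but one, BMDM-WT replicate 4 at 18 h, with 13 counts. In a test of all 18060 genes with a count, Notch4 rose from 5 to 18 h in BMDM-WT (log2 value 2.48 ± 0.885, edgeR adjusted p = 0.019). That call rests on 0 to 2 counts per library at 5 h and 3 to 13 at 18 h.

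Among the ligands, Jag1 (chr2:137081451-137116520, minus strand) had a course of its own, with its peak at 1 h, and was called lower in BMDM-Nur77-KO at 0, 1 and 5 h. The BMDM-WT libraries had 34.8, 32.2, 27.3 and 33.4 CPM at 0 h, 91.3, 85.3, 94.7 and 109 at 1 h, 69.3, 61.8, 69.7 and 78.8 at 5 h and then 16.9, 15.2, 19.9 and 16.8 at 18 h. The BMDM-Nur77-KO libraries had 23.7, 20.8, 23.3 and 24.4 CPM at 0 h, 69.5, 69.6, 63.7 and 75 at 1 h, 64.3, 46.7, 45.6 and 45.9 at 5 h and then 14.5, 13.7, 13.9 and 15.2 at 18 h. At 0 and 1 h all knockout libraries lay below all BMDM-WT libraries, at 5 h all but replicate 1 did, and at 18 h the groups were close but apart.

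The log2 difference of Jag1 between BMDM-Nur77-KO and BMDM-WT in edgeR was -0.47 ± 0.106 at 0 h (SE, adjusted p = 0.0031), -0.45 ± 0.10 at 1 h (adjusted p = 0.0037), -0.46 ± 0.103 at 5 h (adjusted p = 0.002) and -0.28 ± 0.114 at 18 h (adjusted p = 0.084). Jag1 thus stood at 0.724 to 0.732 of its BMDM-WT level at the 3 earlier times. Without BMDM-Nur77-KO replicate 1, the Jag1 difference at 5 h was -0.60 (edgeR adjusted p = 2.1e-05), and in a fit to the libraries at 5 h alone it was not called (-0.47, 0.09).

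The response of Jag1 to LPS was of like size in both genotypes: 2.96-fold in BMDM-WT and 2.99-fold in BMDM-Nur77-KO at 1 h (edgeR adjusted p = 1.5e-13 and 2.1e-13), and 2.16-fold and 2.17-fold at 5 h. The log2 difference between the responses was 0.02 at 1 h (95% interval -0.27 to 0.30) and 0.00 at 5 h (-0.28 to 0.29). Between 1 and 5 h, Jag1 fell 1.37-fold in BMDM-WT and 1.38-fold in BMDM-Nur77-KO (edgeR adjusted p = 0.00024 and 0.00018). Notch1, Notch2, Rbpj and Maml2 rose over the same interval in both genotypes. By 18 h, Jag1 was 1.86-fold and 1.63-fold below its 0 h level (edgeR adjusted p = 1.6e-08 and 1.6e-06).

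Dll1, a Delta-like ligand (chr17:15367354-15376932, minus strand), was near absence before 5 h. The counts of its BMDM-WT libraries were 0 to 1 at 0 h and 0 to 2 at 1 h, 41, 32, 36 and 46 at 5 h and then 4, 6, 5 and 10 at 18 h. Those of the knockout were 0 to 1 at 0 h and 0 at 1 h, 28, 24, 29 and 46 at 5 h and then 12, 14, 20 and 13 at 18 h. A count of 0 allows up to 3 counts, or 0.156 to 0.36 CPM depending on the library, and these limits and the intervals that follow cover counting error only. Every library at 5 and 18 h lay above every library at 0 and 1 h, and at 18 h every knockout library lay above every BMDM-WT library.

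Summed over libraries, the ratio of Dll1 at 5 h to 0 h was 89.6 in BMDM-WT (155 against 3 counts, 95% interval 30.1 to 439) and 161 in BMDM-Nur77-KO (127 against 1 count, 28.4 to 6400). At 18 h, the ratios to 0 h were 11.1 (3.39 to 57.5) and 63.9 (11 to 2570). No genotype difference of Dll1 can be given at 0 and 1 h. At 5 h it was -0.55 ± 0.225 on the log2 scale (edgeR adjusted p = 0.072), and at 18 h Dll1 was 2.12-fold higher in BMDM-Nur77-KO (1.08 ± 0.338, edgeR adjusted p = 0.021). That call was lost without BMDM-Nur77-KO replicate 3 (0.99, edgeR adjusted p = 0.064), without BMDM-WT replicate 1 (0.93, 0.081) or without BMDM-WT replicate 3 (0.98, 0.054). Without BMDM-Nur77-KO replicate 4, the Dll1 difference at 5 h was -0.80 (edgeR adjusted p = 0.0097). Only the BMDM-WT level at 5 h brought Dll1 into the test, which favours a lower knockout value. Neither 5 h value is therefore read as a result. Dll4, a Delta-like ligand known from sprouting vessels (chr2:119325784-119335666, plus strand), had 0 to 6 counts per library in all groups and was not tested.

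Of the nuclear proteins, Rbpj, the DNA-binding partner of the receptors (chr5:53555779-53657445, plus strand), was abundant and rose less with LPS than the receptors did. The BMDM-WT libraries had 282, 316, 277 and 291 CPM at 0 h, 354, 351, 373 and 413 at 1 h, 568, 534, 554 and 569 at 5 h and then 290.2, 300.3, 353 and 272 at 18 h. The BMDM-Nur77-KO libraries had 368, 333, 354 and 297 CPM at 0 h, 312, 353, 349 and 350.1 at 1 h, 530, 508, 516 and 481 at 5 h and then 388, 357, 345 and 449.7 at 18 h. The genotypes overlapped at 0, 1 and 18 h. At 5 h every knockout library lay below every BMDM-WT library, by a small margin.

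Rbpj was higher in knockout cells at 18 h (log2 difference 0.33 ± 0.0825, edgeR adjusted p = 0.0035), and this was not called in a fit to the libraries at 18 h alone (0.32, 0.083). At 0 h its difference was 0.22 (95% interval 0.06 to 0.38, edgeR adjusted p = 0.08), which passed in DESeq2's Wald test (0.24, adjusted p = 0.034) and in a fit to the libraries at 0 h alone (0.24, edgeR adjusted p = 0.047). At 1 and 5 h, the differences were -0.13 and -0.12 (edgeR adjusted p = 0.49 and 0.26). With LPS, Rbpj rose at 1 h in BMDM-WT (1.27-fold, edgeR adjusted p = 0.0023), and the knockout was at 1.00-fold of its 0 h level. The difference between these responses was -0.35 ± 0.116 on the log2 scale, with an unadjusted p of 0.0059 and an edgeR adjusted p of 0.42, and so did not pass. At 5 h, Rbpj rose 1.88-fold in BMDM-WT and 1.48-fold in BMDM-Nur77-KO (edgeR adjusted p = 3.5e-11 and 4.2e-07), a difference of -0.34 (adjusted p = 0.11). The table holds 5 transcripts of Rbpj that share reads, so the value is that of the gene and not of an isoform.

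Maml2, a Mastermind-like coactivator (chr9:13296561-13709533, plus strand), rose with the receptors at 5 h and was higher in BMDM-Nur77-KO at the 2 later times. The BMDM-WT libraries had 16.6, 19.5, 18.4 and 17.1 CPM at 0 h, 23.1, 23.1, 22.6 and 24.7 at 1 h, 64.7, 66.9, 74.2 and 63.0 at 5 h and then 10.4, 10.6, 14.2 and 10.1 at 18 h. The BMDM-Nur77-KO libraries had 24.0, 22.0, 20.6 and 19.4 CPM at 0 h, 22.7, 23.4, 24.6 and 23.2 at 1 h, 109, 92.8, 94.5 and 74.5 at 5 h and then 13.8, 12.9, 17.4 and 21.3 at 18 h. At 5 h all knockout libraries lay above those of BMDM-WT, and at 18 h BMDM-WT replicate 3 reached into the knockout range.

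The Maml2 difference was 0.47 ± 0.114 on the log2 scale at 5 h (edgeR adjusted p = 0.0043) and 0.52 ± 0.131 at 18 h (edgeR adjusted p = 0.0037). In fits to the libraries of each time alone, these calls were lost (0.46, edgeR adjusted p = 0.076, and 0.51, 0.088), and the difference at 0 h, 0.27 in the fit to all libraries (adjusted p = 0.16), was called (0.29, 0.042). Without BMDM-Nur77-KO replicate 1, the Maml2 difference at 5 h was 0.38 (edgeR adjusted p = 0.021). Maml2 rose 3.69-fold in BMDM-WT and 4.25-fold in BMDM-Nur77-KO at 5 h (edgeR adjusted p = 1e-14 and 7.5e-16) and fell below its 0 h level at 18 h in both, 1.59-fold and 1.33-fold (3.8e-05 and 0.004). The table holds 2 transcripts of Maml2 that share reads.

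Of the target genes, Hes1 (chr16:30065357-30067796, plus strand), a repressor that is widely used as a readout of Notch activity, had 0 to 3 counts in every library and at least 1 in 8 of the 32. No change of Hes1 was detectable at this depth. Hey1, a related repressor (chr3:8663359-8667038, minus strand), had 5, 13, 13 and 9 counts in BMDM-WT and 13, 12, 9 and 9 in BMDM-Nur77-KO at 0 h. At 5 h it had 1 to 3 and 2 to 4 counts, and at 18 h 2 to 4 and 1 to 6. It was too low for the filter on RPKM. In a test of all 18060 genes with a count, Hey1 fell with LPS in the knockout at 5 h (log2 value -1.73 ± 0.459, edgeR adjusted p = 0.0017) and 18 h (-1.48, 0.0035), and in BMDM-WT at 5 h (adjusted p = 0.006) and 18 h (-1.41, 0.01). For the genotype at 1 h, Hey1 had 2, 6, 6 and 1 counts in BMDM-WT and 4, 8, 10 and 8 in BMDM-Nur77-KO, and the difference did not pass (edgeR adjusted p = 0.28).

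Counted over the members tested, edgeR called 0 higher and 2 lower in the knockout at 0 h, against 6.33% of all tested genes in each direction, and 0 higher and 2 lower at 1 h, against 3.48% and 3.06%. At an unadjusted p under 0.05, 2 members were higher at 0 h and 0 at 1 h, and DESeq2's Wald test called 1 and 0. At 5 h, 1 was higher and 1 lower, where 13.7% of all tested genes were higher and 10.7% lower. At 18 h, 4 were higher and 0 lower by edgeR, where 11.7% and 9.93% of all tested genes were, and 1 was lower at an unadjusted p under 0.05 and 0 by DESeq2. The 4 were Notch2, Dll1, Rbpj and Maml2, and the member with the unadjusted p was Jag1. With Dll1 left out, 1 of 5 was higher and 1 lower at 5 h, and 3 of 5 were higher and 0 lower at 18 h. The median log2 difference of the 6 members, Dll1 included, was 0.36 at 18 h, beside -0.01 over all tested genes. No median is given at 5 h, where a lower knockout value of Dll1 was favoured in advance. At 0 and 1 h, with Dll1 left out, the median was -0.05 and -0.13 for 5 members. Of all called differences of members between genotypes, only that of Dll1 at 18 h exceeded 0.58 on the log2 scale in size. The comparisons of genotype and of LPS share libraries and are not independent.

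**Figure D3:**
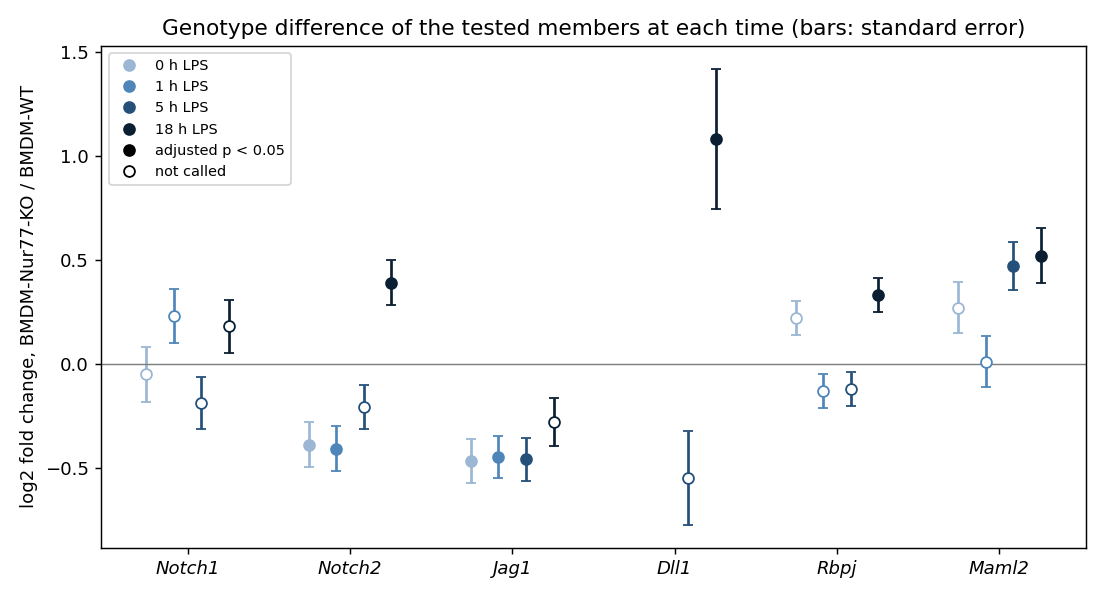
Log2 fold change of BMDM-Nur77-KO against BMDM-WT for the 6 tested members at each time of LPS, with the standard error as bars, filled points for adjusted p under 0.05 and open points for values that were not called; Dll1 is left out at 0 and 1 h. Jag1 lies between -0.47 and -0.28 at all times, and Notch2 goes from -0.39 at 0 h to 0.39 at 18 h.

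With LPS, Notch1, Notch2, Jag1, Rbpj and Maml2, the 5 tested members other than Dll1, were all higher at 5 h than at 0 h in BMDM-WT, where 30.1% of all tested genes were called higher and 40.1% lower, and in BMDM-Nur77-KO, where 32.2% were higher. Dll1 is left out of these counts of rises and falls, because its BMDM-WT level at 5 h alone brought it into the test. At 1 h, 3 were higher in BMDM-WT (Jag1, Rbpj and Maml2), against 10.1% of all tested genes higher and 10.2% lower, and 2 in BMDM-Nur77-KO (Jag1 and Notch1), against 6.9%. The Maml2 call at 1 h in BMDM-WT (1.29-fold, edgeR adjusted p = 0.029) was lost when any of 4 libraries was left out. At 18 h, 1 of the 5 was higher and 2 were lower than at 0 h in BMDM-WT, against 32.4% and 33.9% of all genes. In BMDM-Nur77-KO, 2 of the 5 were higher and 2 lower, against 33.8% and 35.6%. From 1 to 5 h, 4 of the 5 rose and 1, Jag1, fell in each genotype, where 29% and 36.2% of all tested genes were called in BMDM-WT, and 32.5% and 38.3% in BMDM-Nur77-KO. From 5 to 18 h, 5 of 5 fell in each genotype, where 33.4% and 34.2% of all tested genes fell. The response to LPS differed between genotypes for 0 of these 5 members at 1 h and at 5 h by edgeR. Of all genes, 0.0715% and 3.12% were called at these times. At 18 h it differed for 1 of the 5, Notch2, where 9.42% of all genes were called. Dll1 is left out here too, because it had at most 1 count per library at 0 h. At an unadjusted p under 0.05, Rbpj alone of the members differed at 1 and 5 h, with a p of 0.0059 and 0.0061, and DESeq2's Wald test also called 0 at both times.

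**Figure D4:**
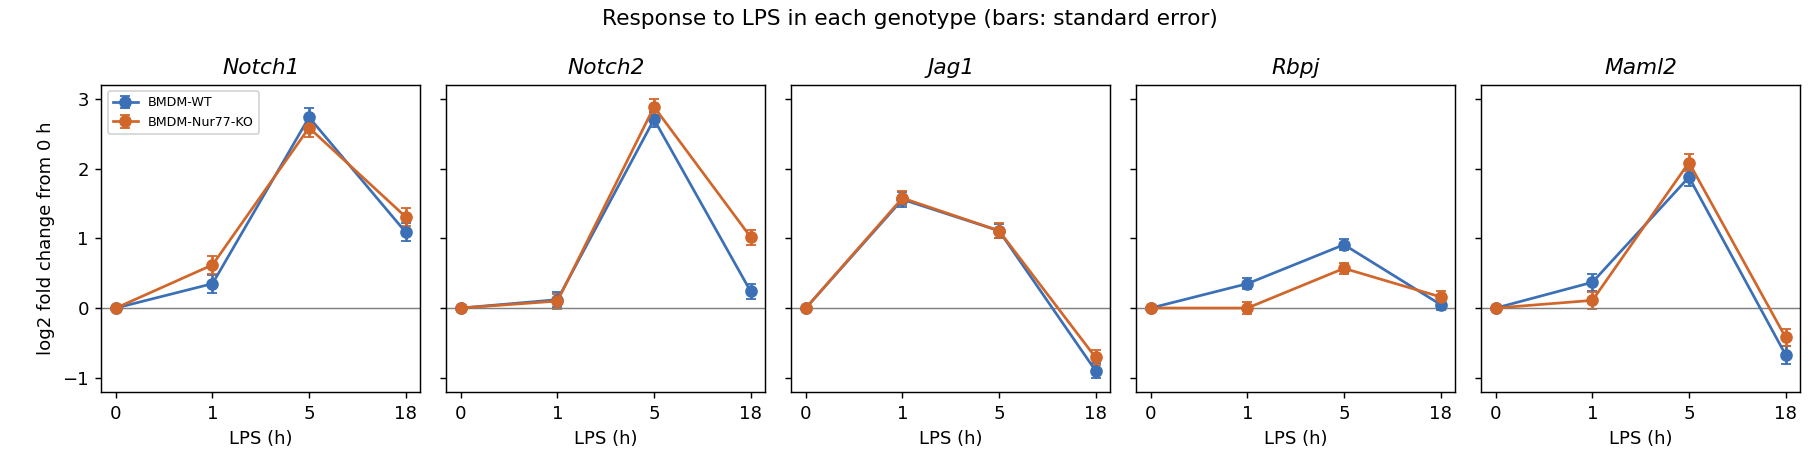
Log2 fold change from 0 h (0 by definition at 0 h) against hours of LPS for 5 members in BMDM-WT (blue) and BMDM-Nur77-KO (orange), with the standard error as bars; Dll1 is not drawn because it had at most 1 count per library at 0 h. The lines of Jag1 nearly coincide, and those of Notch2 part at 18 h, at 0.24 and 1.02.

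Of 73 other genes of the pathway, 51 passed the filter. Of the 22 others, 8 were receptors or ligands, 10 targets, 3 ubiquitin ligases or endocytosis genes (Neurl1a, Neurl1b and Nedd4) and 1 a nuclear protein (Rbpjl). Notch3 had at most 2 counts in a library, Dll3 had 0, Jag2 at most 12, and the targets Hes5, Hey2 and Heyl at most 1 and Nrarp 2. Hes6 was the only other HES or HEY gene tested, with 7.38 ± 0.892 CPM in BMDM-WT at 0 h, and it did not differ between genotypes by the test at any time. Of the 51 genes, edgeR called 3 higher (5.88%) and 6 lower (11.8%) in the knockout at 0 h, beside 6.33% of all tested genes in each direction. It called 0 at 1 h, where 7 had an unadjusted p under 0.05 and 3.48% and 3.06% of all genes were called. At 5 h, 4 were higher (7.84%) and 10 lower (19.6%), beside 13.7% and 10.7%, and at 18 h 5 were higher (9.8%) and 6 lower (11.8%), beside 11.7% and 9.93%. The 5 h counts include BMDM-Nur77-KO replicate 1, and no count of these genes without it is given. Over all genes, edgeR called 1494 at 5 h without that library, against 1533 higher and 1197 lower with it.

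Glycosylation of the receptors sets how they respond to each ligand. Of its 5 genes, 3 were called lower at 0 h, beside 6.33% of all tested genes. Lfng was well past the threshold, and Mfng and Rfng (-0.43, edgeR adjusted p = 0.046) were close to it. At 1 h 0 were called lower, at 5 h 1 and at 18 h 1, beside 3.06%, 10.7% and 9.93% of all tested genes. The fringe enzyme Lfng, which adds a sugar to Notch repeats, had 48.4 ± 4.09 CPM in BMDM-WT and 28.6 ± 2.27 in BMDM-Nur77-KO at 0 h (log2 difference -0.75, edgeR adjusted p = 3.9e-05), and 34.5 ± 2.78 and 18.9 ± 3.57 CPM at 18 h (-0.88, 2.6e-06). Its relative Mfng was lower at 0 h (-0.69, edgeR adjusted p = 0.041), a call on 18 to 54 counts per library that DESeq2's Wald test did not make (0.067) and that the loss of any of 5 libraries ended. At 1 h of LPS in BMDM-WT, Lfng fell 1.41-fold (edgeR adjusted p = 0.0025) and Mfng 1.56-fold (0.04, not called with DESeq2 size factors, 0.055). Mfng fell 9.6-fold at 5 h (edgeR adjusted p = 9.4e-10).

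Of the 10 genes for receptor cleavage, Psen2, a catalytic subunit of gamma-secretase, was lower in the knockout at 0 h (-0.50, edgeR adjusted p = 0.0062), 5 h (-0.44, 0.013) and 18 h (-0.44, 0.0073), and rose 2.86-fold by 18 h of LPS in BMDM-WT (edgeR adjusted p = 3.7e-12). Its libraries overlapped at 5 h (25.2 to 45.1 CPM in the knockout, 44.9 to 57.4 in BMDM-WT), and that call includes BMDM-Nur77-KO replicate 1. Aph1c, another subunit, fell 7.53-fold at 5 h in BMDM-WT and was higher in the knockout at that time (0.42, edgeR adjusted p = 0.016, or 0.059 without BMDM-WT replicate 1). Aph1b was lower at 18 h (-0.50, edgeR adjusted p = 0.031), and this was lost without any of 4 libraries. Near-identical Aph1b and Aph1c can share reads, and their values are uncertain.

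Among the ubiquitin ligases, Fbxw7, which marks the active receptor fragment for destruction, was higher in knockout cells at 0 h (0.38, edgeR adjusted p = 0.016, lost without BMDM-Nur77-KO replicate 1 or BMDM-WT replicate 3) and at 18 h, with 52.6 ± 7.41 against 30.6 ± 2.30 CPM (0.77, 1.4e-06). Itch was higher at 0 h (0.29, edgeR adjusted p = 0.047) and lost the call when any of 7 libraries was left out. Dtx3l rose 14-fold at 5 h of LPS in BMDM-WT (edgeR adjusted p = 2.7e-23) was higher in the knockout at 18 h (0.39, 0.004). Dtx2 rose 7.15-fold at 5 h and 8.18-fold at 18 h, and Dtx4 1.51-fold at 1 h. At 5 h, Dtx4 was higher (0.35, edgeR adjusted p = 0.0054) and Neurl3 lower (-0.51, 0.0038) in the knockout. In a fit to the libraries at 5 h alone, Dtx4, Neurl3, Aph1c and Hdac2 were not called (edgeR adjusted p = 0.1, 0.079, 0.14 and 0.2).

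In the group of nuclear cofactors, the acetyltransferase Kat2b was higher in knockout cells at 0 h (0.41, edgeR adjusted p = 0.0012) and at 18 h, with 157 ± 14.3 against 94.7 ± 9.57 CPM (0.72, 6.1e-08). The corepressor Tle3 was lower at 5 h, with 96.8 ± 18.1 against 166 ± 4.30 CPM (-0.77, edgeR adjusted p = 4.6e-07), and its response to LPS at 5 h also differed (-0.61, 0.0065). The histone deacetylase Hdac2 was higher at 5 h (0.62, edgeR adjusted p = 0.013), and without BMDM-Nur77-KO replicate 1 this was 0.27 and not called (0.17). Over 18 h of LPS in BMDM-WT, Tle1 fell 9.14-fold and Maml3, a relative of Maml2, 8.92-fold (edgeR adjusted p = 5.2e-13 and 8.7e-16).

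The targets that were tested are also controlled by many other signals. Myc rose 3.05-fold at 1 h of LPS in BMDM-WT and was 5.63-fold below 0 h at 5 h and 41.2-fold below it at 18 h (edgeR adjusted p = 1.4e-13, 3.1e-17 and 1.9e-22), and Cdkn1a, a cell cycle inhibitor, rose 3.19-fold at 1 h and 6.48-fold at 5 h. Hes6 fell at 1 h (-0.77, edgeR adjusted p = 0.016), a call lost without either replicate 4. Of these targets, Ccnd1, which drives entry into the cell cycle, was lower in the knockout at 5 h (-0.70, edgeR adjusted p = 2.9e-06), with 256 ± 23.6 against 416 ± 18.1 CPM. Over all 51 genes, 8 rose (15.7%) and 5 fell (9.8%) at 1 h in BMDM-WT, beside 10.1% and 10.2% of all tested genes. At 5 h, 17 rose (33.3%) and 24 fell (47.1%), beside 30.1% and 40.1%, and at 18 h 18 rose (35.3%) and 17 fell (33.3%), beside 32.4% and 33.9%.

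**Figure D5:**
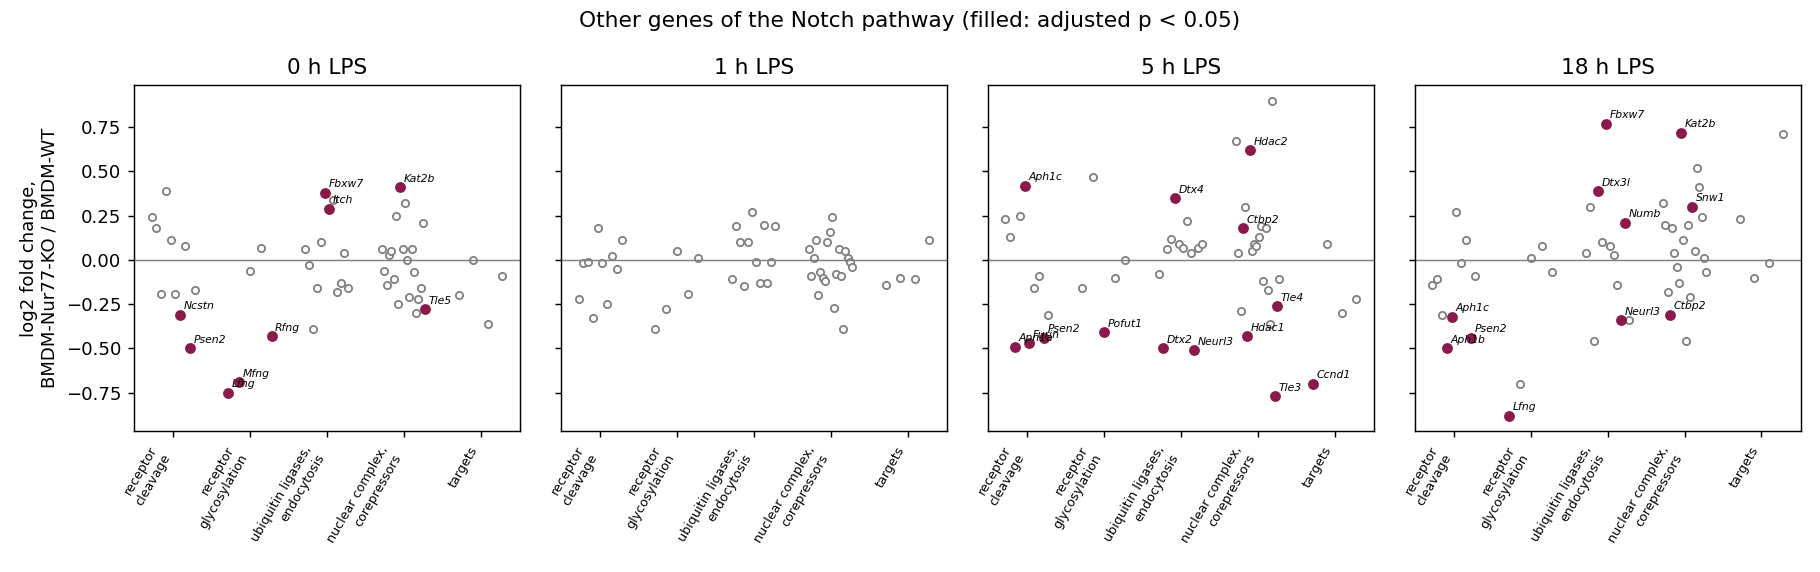
Log2 fold change of BMDM-Nur77-KO against BMDM-WT for the 51 other tested pathway genes, by role and by hours of LPS, with filled and named points for adjusted p under 0.05. No point is filled at 1 h, Lfng is lowest at 0 and 18 h, and Fbxw7 and Kat2b are the highest called genes at 18 h.

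Across the 32 libraries, log2 CPM of Notch2 had a Pearson correlation of 0.95 with Notch1, 0.92 with Dll1 and 0.27 with Jag1, and Rbpj and Maml2 had one of 0.88 with each other. Of all tested genes, the closest to Notch2 were Spsb1 and Nfkb1 (0.983 each), to Notch1 Il27 (0.986) and Src (0.985), to Dll1 Rmdn3 (0.986) and Abtb2 (0.981), to Rbpj Spred1 (0.966) and Jarid2 (0.958), and to Maml2 Cdv3 (0.989) and Tra2a (0.985). Jag1 was closest to Odc1 (0.959) and Noct (0.953), and 15 genes had a correlation over 0.9 with it, against 118 for Rbpj and 231 to 542 for the other members. These values describe libraries that share a time course, a depth scale and a genotype, and carry no test.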

How the data were processed

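RNA-seq of 32 BMDM libraries was analysed. The deposited table holds expected counts that the authors made without normalization: paired reads were aligned to mm10 with HISAT2 (2.1.0 in the submitters' processing notes), filtered on mapping quality with SAMtools and counted on RefSeq transcripts with HOMER, where each mate adds 0.5, so that 28.6% of values are not whole. The kit keeps strand; whether counting used it is not given in the sources used here. Isoforms of 1 gene are listed apart and can share reads.

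Of 42361 transcripts, 42203 were named through RefSeq GRCm38, 65 through GENCODE, and 93, with 0.233% to 1.37% of tags, were left out. Each of 25067 genes was represented by its transcript of highest mean count, rounded to whole numbers. In R 4.3.3, edgeR 4.0.16 (TMM, quasi-likelihood test) was fitted with 1 mean for each of the 8 groups to the 11190 genes whose mean RPKM was above 1 in some group. CPM and RPKM were computed from these counts and TMM library sizes. Scripts were tested on simulated data.

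The alternatives were DESeq2 1.42.0 size factors and Wald test, filterByExpr (12215 genes), no filter (18060), fits to the libraries compared only, replicate blocks, log2 fold limits of 0.58 and 1, all transcripts as deposited, and leaving out each library. Members, lists and tests were chosen with earlier results of these data known. All members are named; of the other pathway genes, up to 3 called higher and 3 lower with the largest change in each comparison of genotype and of LPS in BMDM-WT are named, and, for each tested member, the 2 genes with the highest correlation. The cell type markers, Rfng and the pathway genes under the filter were named after their values were seen.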

Additional observations from a re-analysis of the deposited data

Results flagged for a closer look

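In 5 of 61 groups of 4 libraries tested over the members, 1 library stood apart from the others by Dixon's test. Chance flags about 1 in 20 groups. Notch4 had 1.11 CPM in BMDM-WT replicate 4 at 18 h, and the other libraries had 0.273 to 0.378. Jag1 had 64.3 CPM in BMDM-Nur77-KO replicate 1 at 5 h, against 45.6 to 46.7 in the others. Rbpj had 312 CPM in BMDM-Nur77-KO replicate 1 at 1 h, where the others had 349 to 353. Maml2 had 14.2 CPM in BMDM-WT replicate 3 at 18 h, against 10.1 to 10.6. Hey1 had 1.18 CPM in BMDM-Nur77-KO replicate 1 at 0 h, against 0.686 to 0.751 in the others.

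The response of Notch2 to 18 h of LPS differed between the genotypes, with an interaction of 0.79 on the log2 scale (edgeR adjusted p = 0.00059). All 4 knockout libraries lay below BMDM-WT at 0 h, and all 4 lay above it at 18 h.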

How the results depend on the processing

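Of 960 values of members with 1 library left out, 943 kept their direction and call, 10 lost a call, 7 gained one and 0 changed sign with a call. Of 792 values under the alternatives without fold limits, 774 were kept, 4 lost a call and 14 gained one. The number of members called between genotypes ranged from 1 to 3 at 0 h with a library left out, from 1 to 2 at 1 h, from 2 to 3 at 5 h and from 3 to 4 at 18 h. In fits to the libraries compared alone, the members called were 4 at 0 h (2 higher, 2 lower), 0 at 5 h and 2 at 18 h, with fewer libraries behind the estimate of spread. With a log2 limit of 0.58, the members called were 0 at 0, 1 and 5 h and 1 at 18 h between genotypes, and 1 at 1 h of LPS in BMDM-WT, and with a limit of 1 they were the same in number. With the limit of 1 and Dll1 included, 1 was called at 1 h of LPS in BMDM-Nur77-KO and 2 at 18 h in BMDM-WT. The number was 3 at 18 h in BMDM-Nur77-KO and 0 for the difference of responses at 18 h. Leaving out a library gave 2 to 3 members at 1 h of LPS in BMDM-WT. With a replicate block, the members called stayed 2, 2, 2 and 4 between genotypes at the 4 times. Deviations of same-numbered libraries correlated from -0.05 to 0.24 at 0 h and from -0.38 to 0.17 at 18 h between genotypes. Within BMDM-Nur77-KO they correlated from -0.14 to 0.47 between 0 and 5 h and from -0.70 to 0.32 between 5 and 18 h. Within BMDM-WT the ranges were -0.21 to 0.07 and -0.08 to 0.06. These values do not settle whether the replicate numbers pair the libraries. The block added the call of Notch2 at 18 h of LPS in BMDM-WT (edgeR adjusted p = 0.047). Over all genes, 1132 rose and 1139 fell at 1 h in BMDM-WT with TMM, and 1362 and 908 with DESeq2 size factors. Calls between genotypes at 5 h ranged over all genes from 1494 without BMDM-Nur77-KO replicate 1 to 3956 without replicate 4. Members with under 10 counts in most libraries, Hes1, Hey1, Notch4 and Dll4, could not show small changes.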
